A study of Mus musculus with 6 samples.

Results

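Transcript levels of 10 marker genes of liver sinusoidal endothelium (Lyve1, Stab1, Stab2, Pecam1, Kdr, Clec4g, Oit3, Fcgr2b, Mrc1 and Vwf) were compared between ARRB1 knockout and wild-type mice. The genes were chosen by name, and all 10 were found among the 46095 gene symbols of the expression table. The 6 libraries came from C57BL/6 mice kept on a high-fat diet (HFD) for 26 weeks, 3 labelled HFD-ARRB1-KO (ARRB1-/-) and 3 labelled HFD-WT. The groups share strain, diet and tissue, and the labels state neither sex nor age in weeks, nor in which cells ARRB1 was deleted, nor whether animals were pooled. The genotype labels of knockout replicates 2 and 3 read ARRB2-/- and ARRB3-/-, whereas their titles and the series text name ARRB1, and groups were taken from the titles. The study asked how beta-arrestin 1, an adaptor protein of G protein-coupled receptors, acts on diet-induced steatohepatitis.

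Sinusoidal endothelial cells line the capillaries of the liver. They are perforated by open pores, lack a continuous basement membrane, and clear waste macromolecules from blood through scavenger, lectin and Fc receptors. In chronic liver injury they can lose these features and come to resemble the endothelium of ordinary capillaries, a change called capillarization.

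The material is labelled hepatocyte, and RNA of other liver cells was present in every library. Albumin (Alb), the main secreted product of hepatocytes, was at 28667 to 35463 FPKM in knockout libraries and 27740 to 33480 FPKM in wild-type libraries, while the 10 endothelial genes together summed to 145 to 168 FPKM in knockout and 133 to 151 FPKM in wild type. FPKM are fragments scaled by the length of the gene and the total of the library, so levels can be compared between genes. The reads behind the values, recovered from the step size of 1 read, numbered 13354411 in knockout replicate 1 and 26947953 to 33873322 in the other 5 libraries. Each of the 10 genes had at least 251 reads in each library. The targeted gene, Arrb1, was at 0.918, 1.05 and 1.16 FPKM in the libraries labelled knockout and at 3.86, 22.7 and 16.9 FPKM in wild type.

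The coding start of Lyve1 is shown because its transcript carried the clearest difference. It is the first 300 of 954 coding bases of the 6-exon GENCODE transcript Lyve1-201 (build GRCm38, chromosome 7, minus strand), with the start codon in capitals:
Lyve1: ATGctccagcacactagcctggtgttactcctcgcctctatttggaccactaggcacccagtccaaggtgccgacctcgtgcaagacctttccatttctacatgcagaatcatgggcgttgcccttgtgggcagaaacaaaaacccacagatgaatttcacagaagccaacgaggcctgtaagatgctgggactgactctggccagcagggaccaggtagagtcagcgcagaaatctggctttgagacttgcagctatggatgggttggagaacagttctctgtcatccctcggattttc
Promoter windows of 300 bases, 250 before and 50 after the RefSeq transcription start (build GRCm38.p6), were found for 6 of the 10 genes. Those of the paralogs Stab1 and Stab2 are shown because the knockout and wild-type levels of both were separate, and that of Clec4g because its levels overlapped. Capitals mark AGGAAG on either strand, a word bound by ETS factors, which act in endothelial cells in general. The windows lie at chr14:31168592-31168891 (Stab1), chr10:87007893-87008192 (Stab2) and chr8:3720602-3720901 (Clec4g), all read on the minus strand:
Stab1: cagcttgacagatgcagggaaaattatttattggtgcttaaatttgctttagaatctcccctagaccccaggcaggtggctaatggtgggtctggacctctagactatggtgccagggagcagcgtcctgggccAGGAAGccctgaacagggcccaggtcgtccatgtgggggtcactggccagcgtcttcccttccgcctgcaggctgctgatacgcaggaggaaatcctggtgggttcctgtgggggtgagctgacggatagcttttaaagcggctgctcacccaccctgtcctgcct
Stab2: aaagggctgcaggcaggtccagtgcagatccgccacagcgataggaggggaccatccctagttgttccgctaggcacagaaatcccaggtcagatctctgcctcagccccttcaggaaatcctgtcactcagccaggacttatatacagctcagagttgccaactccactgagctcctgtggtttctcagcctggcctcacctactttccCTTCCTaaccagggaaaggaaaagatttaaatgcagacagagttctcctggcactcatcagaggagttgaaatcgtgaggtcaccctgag
Clec4g: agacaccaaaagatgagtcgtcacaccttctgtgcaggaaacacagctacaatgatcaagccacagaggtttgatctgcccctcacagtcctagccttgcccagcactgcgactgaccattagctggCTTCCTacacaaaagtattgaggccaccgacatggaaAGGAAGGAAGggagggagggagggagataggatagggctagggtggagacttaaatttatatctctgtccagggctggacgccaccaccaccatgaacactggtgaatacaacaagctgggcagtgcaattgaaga
AGGAAG was found in 4 of the 6 windows, those 3 and Mrc1, against 35.4% of 32851 promoter windows of the same length. In Clec4g, a pair of its 3 matches overlap. The GATA words AGATAA and TGATAA, and the AP-1 words TGAGTCA and TGACTCA, searched on both strands, were found in 0 of the 6 windows and in 18.6% and 5.2% of all windows. The words were chosen after the expression values were known, and a match is a description of the letters only.

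Of the 10 genes, 2 rose in knockout libraries, Lyve1 and Pecam1, and none fell. By limma on log2(FPKM + 1), with calls at an adjusted p under 0.05 over the 10633 genes that averaged 1 FPKM or more, 5.30% of genes were called higher and 1.60% lower. Higher genes made up 76.8% of these calls, 85.2% with TPM values, 60.9% with median-of-ratios factors, 64.5% with quantile normalization and 60.3% with no filter. At an unadjusted p under 0.05, 5 of the 10 were higher and 0 lower, where 25.3% of tested genes passed in either direction. With voom (limma on recovered read counts), 2 were higher and 0 lower, with 7.42% of genes called higher and 1.89% lower. Levels of 6 of the 10 genes did not overlap between groups, all higher in knockout (Lyve1, Pecam1, Oit3, Stab1, Stab2 and Vwf), against 23.4% of all tested genes that were separate in that direction and 7.81% in the other. Kdr, Clec4g, Fcgr2b and Mrc1 overlapped. The median log2 fold change was 0.23 over the 10 genes and 0.07 over all tested genes. In bulk RNA, a different number of endothelial cells and a different amount of RNA per cell cannot be told apart.

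**Figure D1:**
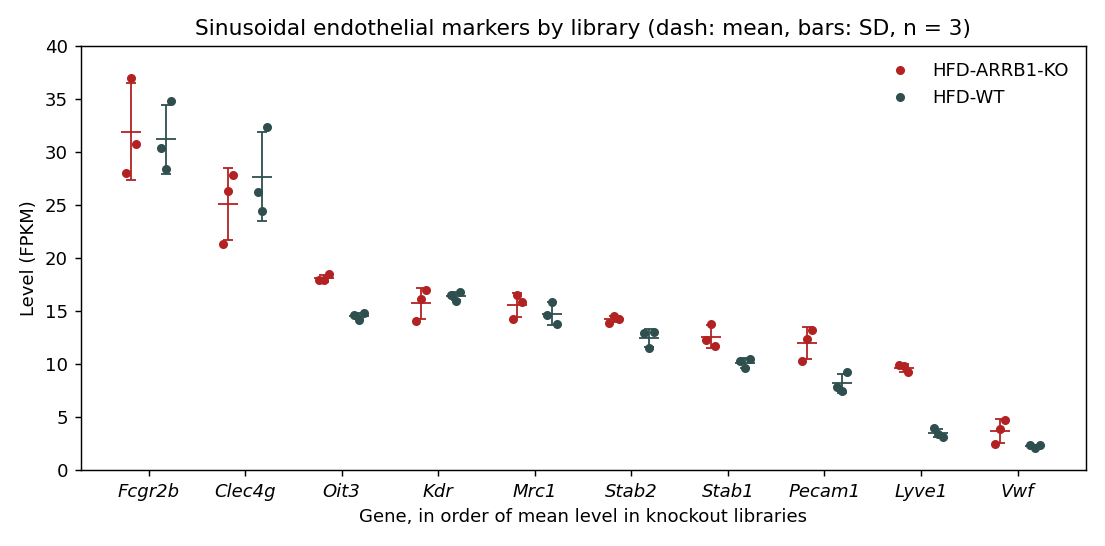
FPKM (linear axis) of the 10 endothelial genes in each of 3 HFD-ARRB1-KO (red) and 3 HFD-WT (dark) libraries, with the mean (dash) and SD (bars), ordered by mean level in knockout. Lyve1 lies between 9.23 and 9.90 FPKM in knockout and between 3.18 and 3.95 FPKM in wild type, while Kdr, Clec4g, Fcgr2b and Mrc1 overlap between groups.

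The order of levels was nearly the same in both groups. In knockout libraries the means ran from 32.0 FPKM for Fcgr2b through Clec4g, Oit3, Kdr, Mrc1, Stab2, Stab1, Pecam1 and Lyve1 to 3.73 FPKM for Vwf. The ranges of the neighbours Kdr and Mrc1, Mrc1 and Stab2, and Stab1 and Pecam1 overlapped there. In wild type the means ran from 31.2 FPKM for Fcgr2b to 2.26 FPKM for Vwf, with Oit3 after Kdr and Mrc1 and the rest in the same order, and the ranges of Fcgr2b and Clec4g and of Mrc1 and Oit3 overlapped. The libraries differed within groups in a shared way. Knockout replicate 1, the shallowest library, was the lowest of the knockout libraries for 7 of the 10 genes, and the part of depth in this was not tested. Wild-type replicate 2 was the lowest of its group for 8 of the 10, and wild-type replicate 3 was the highest for 8.

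Lyve1 encodes a receptor for the matrix polysaccharide hyaluronan, found on sinusoidal and lymphatic endothelium. It lies at 110850607 to 110863239 on chromosome 7 (GRCm38, minus strand). Its level was 9.90, 9.79 and 9.23 FPKM in knockout libraries, from 359, 895 and 702 reads, and 3.95, 3.45 and 3.18 FPKM in wild-type libraries, from 343, 251 and 251 reads. All 3 knockout values were more than 5 FPKM above the highest wild-type value. The means were 9.64 ± 0.361 FPKM in knockout and 3.53 ± 0.392 FPKM in wild type (SD, n = 3 each), a ratio of 2.74. The log2 fold change was 1.24 ± 0.0953 (SE; 95% interval 1.02 to 1.46; limma, adjusted p = 0.00176). Among the 10633 genes it ranked 7 by p-value and 88 by signed log2 fold change, counted from the most positive. It was called in each of 15 alternative analyses, including those without any 1 library, with log2 fold changes from 1.15 to 1.44 and adjusted p from 0.00113 to 0.0262.

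Lyve1 was the only one of the 10 genes on the chromosome of the targeted gene. It lies 11.2 megabases beyond the end of Arrb1. Of 71 tested genes that lie between them, 6 were called higher (8.45%) and 0 lower by limma, against 5.83% and 1.32% of the 755 tested genes of chromosome 7. The strain origin of this interval in the knockout animals is not given by the labels, and its part in the Lyve1 result was not tested.

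Lyve1 was also set in proportion to the other endothelial genes of the same library, a comparison that does not depend on how libraries are scaled. Lyve1 over Stab2 was 0.710, 0.675 and 0.646 in knockout libraries and 0.306, 0.299 and 0.245 in wild type. Lyve1 over Kdr was 0.703, 0.608 and 0.542 in knockout and 0.240, 0.215 and 0.189 in wild type. For each of the other 9 genes as the denominator, the 3 knockout ratios lay above the 3 wild-type ratios. All 9 ratios share Lyve1, taken for its clear difference, and its groups lay further apart than any denominator varied. The separation therefore followed from the Lyve1 levels and is not read as further support. The exact two-sided permutation p of each was 0.1, the smallest that 3 against 3 libraries allow, and 0.121 when adjusted by the Benjamini-Hochberg method over the 17 ratios computed.

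**Figure D2:**
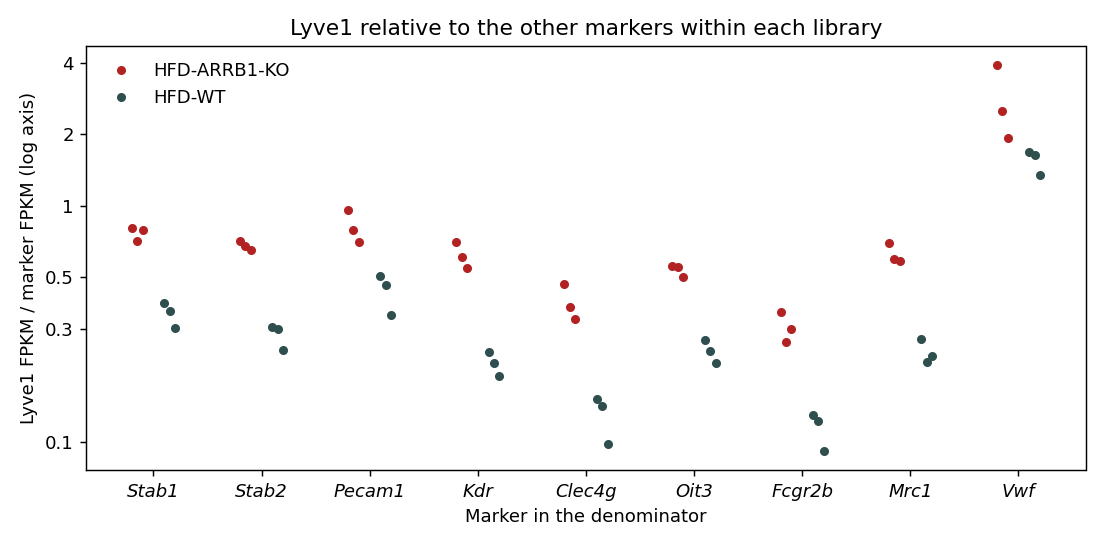
Lyve1 FPKM divided by the FPKM of each other endothelial gene within the same library (log axis), for 3 HFD-ARRB1-KO (red) and 3 HFD-WT (dark) libraries. The knockout points lie above the wild-type points for all 9 denominators, with the smallest gap for Vwf, where they are 1.94 to 3.93 in knockout and 1.35 to 1.69 in wild type. The 9 ratios share the Lyve1 numerator and are not separate results.

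Stab1 and Stab2 encode stabilin-1 and stabilin-2, large scavenger receptors, of which stabilin-2 takes up hyaluronan. Stab1 (chromosome 14, 31139013 to 31168641) was at 12.3, 13.8 and 11.7 FPKM in knockout libraries and at 10.3, 9.61 and 10.5 FPKM in wild type. Stab2 (chromosome 10, 86841198 to 87008025) was at 13.9, 14.5 and 14.3 FPKM in knockout and 12.9, 11.5 and 13.0 FPKM in wild type. The groups were separate for both genes, by small margins. Neither was called, with log2 fold changes of 0.29 ± 0.0908 for Stab1 (SE; 95% interval 0.08 to 0.50; limma, adjusted p = 0.0994) and 0.18 ± 0.0827 for Stab2 (SE; 95% interval -0.01 to 0.37; limma, adjusted p = 0.220). Both stayed uncalled in each alternative. Stab1 over Stab2 was 0.884, 0.950 and 0.818 in knockout and 0.796, 0.834 and 0.807 in wild type, which overlap (exact permutation p = 0.2; adjusted over the 17 ratios, 0.213).

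The lectin and Fc receptors overlapped between groups. Clec4g, a C-type lectin of sinusoidal endothelium, was at 21.3, 26.3 and 27.8 FPKM in knockout libraries and 26.2, 24.4 and 32.4 FPKM in wild type, a log2 fold change of -0.13 ± 0.138 (SE; 95% interval -0.45 to 0.19; limma, adjusted p = 0.586). Mrc1, the mannose receptor, which macrophages also make, was at 14.3, 16.5 and 15.9 FPKM in knockout and 14.6, 15.9 and 13.8 FPKM in wild type, with a 95% interval of the log2 fold change from -0.14 to 0.29 (limma, adjusted p = 0.667). Fcgr2b, the inhibitory Fc receptor for IgG, also found on B cells and macrophages, was at 28.0, 37.0 and 30.8 FPKM in knockout and 30.4, 28.4 and 34.8 FPKM in wild type, with an interval from -0.26 to 0.32 (limma, adjusted p = 0.907). For these 3 genes the intervals leave out the size of the Lyve1 change, and the data do not show that they were equal. The Fcgr2b value is uncertain because Fcgr3 has a nearly identical extracellular part and the counting of shared reads is not given in the sources used here.

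Kdr encodes VEGF receptor 2, the main receptor through which VEGF acts on endothelium. It was at 14.1, 16.1 and 17.0 FPKM in knockout libraries and 16.5, 16.0 and 16.8 FPKM in wild type, a log2 fold change of -0.06 ± 0.0919 (SE; 95% interval -0.28 to 0.15; limma, adjusted p = 0.711). The lowest value was that of knockout replicate 1, from 1069 reads, and the other 5 libraries lay within 16.0 to 17.0 FPKM. The cause of that low value was not tested. In proportion to Stab2, Kdr was at 1.01, 1.11 and 1.19 in knockout and 1.28, 1.39 and 1.30 in wild type, with no overlap (exact permutation p = 0.1; adjusted over the 17 ratios, 0.121). Clec4g over Stab2 was likewise separate, at 1.53, 1.81 and 1.95 in knockout and 2.03, 2.12 and 2.50 in wild type (exact permutation p = 0.1; adjusted, 0.121). Most of the 17 ratios were separate. The denominator Stab2 was itself separate, at 13.9 to 14.5 FPKM in knockout and 11.5 to 13.0 FPKM in wild type, while Kdr and Clec4g overlapped. These ratios are therefore not read as changes of Kdr or Clec4g.

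Pecam1 encodes CD31, an adhesion molecule of endothelial cell junctions that is also present on platelets and leukocytes. Pecam1 (chromosome 11, 106654217 to 106750628) was at 10.3, 12.4 and 13.2 FPKM in knockout libraries and 7.82, 7.51 and 9.24 FPKM in wild type. The groups were separate, with 12.0 ± 1.48 FPKM in knockout and 8.19 ± 0.925 FPKM in wild type (SD, n = 3 each), a ratio of 1.46. The log2 fold change was 0.50 ± 0.118 (SE; 95% interval 0.22 to 0.77; limma, adjusted p = 0.0487), just under the threshold. The call was kept without knockout replicate 1 (adjusted p = 0.0395) and lost without knockout replicate 2 (0.155) or 3 (0.131) or wild-type replicate 1 (0.132), 2 (0.155) or 3 (0.0517). It was also lost with no filter on low values (0.129), with median-of-ratios factors (0.0707), with quantile normalization (0.0670) and with a replicate block (0.0538). The log2 fold change stayed between 0.41 and 0.59 in the 15 alternatives.

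Vwf encodes von Willebrand factor, a clotting protein that is abundant in larger vessels and sparse in healthy sinusoids. It had the lowest level of the 10 genes, at 2.52, 3.91 and 4.76 FPKM in knockout libraries and 2.34, 2.10 and 2.35 FPKM in wild type. Knockout replicate 1 lay close to the wild-type libraries and the other 2 knockout libraries well above them. The log2 fold change of 0.51 ± 0.176 (SE; 95% interval 0.10 to 0.91) was not called (limma, adjusted p = 0.126). Without knockout replicate 1 it was 0.70 and was called (limma, adjusted p = 0.0296), and with any other library left out it was not. Vwf over Stab2 was 0.181, 0.269 and 0.333 in knockout and 0.181, 0.182 and 0.182 in wild type, so knockout replicate 1 had the wild-type proportion.

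Oit3 encodes a protein with a zona pellucida domain that marks sinusoidal endothelium in mouse liver. Its fold change had the smallest SE of the 10 genes, with 17.9, 17.9 and 18.5 FPKM in knockout and 14.6, 14.2 and 14.8 FPKM in wild type. The groups were separate, with a ratio of means of 1.24, and the log2 fold change of 0.30 ± 0.0743 (SE; 95% interval 0.12 to 0.47) was just above the threshold (limma, adjusted p = 0.0566). It was called with the filter at 5 FPKM (adjusted p = 0.0386) and on the TPM scale (0.0289), and the adjusted p was 0.0502 by voom on the recovered reads. Oit3 over Stab2 was 1.28, 1.23 and 1.29 in knockout and 1.13, 1.23 and 1.14 in wild type.

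**Figure D3:**
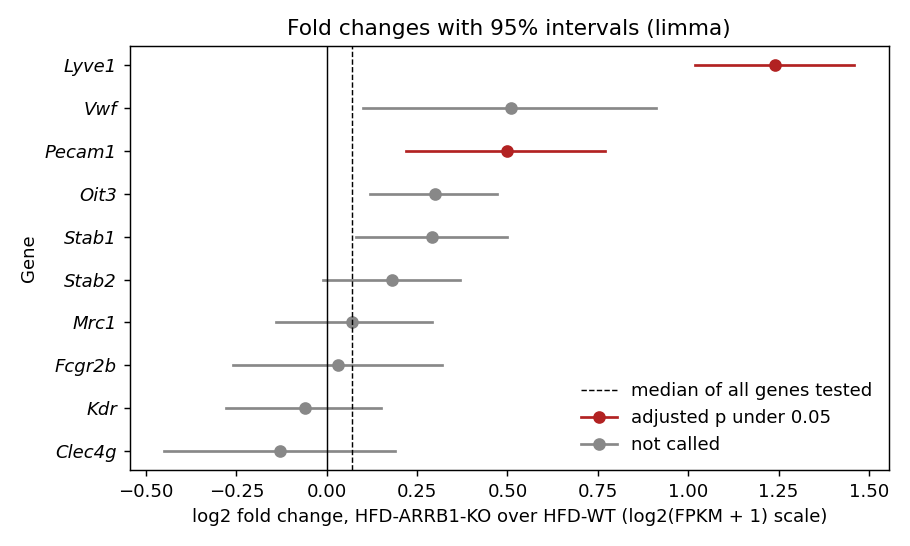
Log2 fold change of HFD-ARRB1-KO over HFD-WT on the log2(FPKM + 1) scale for the 10 endothelial genes, with 95% intervals from limma. Red marks the genes called at an adjusted p under 0.05, Lyve1 at 1.24 and Pecam1 at 0.50, and the dashed line is the median of all tested genes, 0.07.

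Lists of other genes that mark endothelium or other cells are described from here on. Over all tested genes, 5.30% were called higher and 1.60% lower by limma, and 7.42% and 1.89% by voom. At an unadjusted p under 0.05 by limma, 25.3% passed in either direction, and the share in each direction alone was not computed. These shares are the background for every list below. Of 13 other sinusoidal genes, all tested, 1 was higher and 0 lower by limma (median log2 fold change 0.06), by voom 2 were higher and 0 lower, and at an unadjusted p under 0.05, 4 were higher and 0 lower. The higher gene was Flt4, the VEGF-C receptor, at 10.2 ± 1.02 FPKM in knockout and 6.77 ± 0.503 FPKM in wild type (SD, n = 3 each; limma, adjusted p = 0.0275). Its call was lost without knockout replicate 2 (0.104) or 3 (0.0838) or wild-type replicate 1 (0.0895) or 2 (0.0921). Sinusoidal cells send Wnt2 and Rspo3 to pericentral hepatocytes to drive Wnt signalling. Their transcripts were at 1.69 ± 0.265 and 4.11 ± 0.931 FPKM in knockout and at 0.966 ± 0.0886 and 2.84 ± 0.468 FPKM in wild type (limma, adjusted p = 0.0683 and 0.164). Wnt2 reached the 1 FPKM mean by its level in knockout alone. It is among the genes counted by voom and at an unadjusted p, and its part in those counts is not read as support. Gpr182, an atypical chemokine receptor of sinusoids, was at 24.9 ± 1.78 FPKM in knockout and 19.3 ± 3.29 FPKM in wild type (limma, adjusted p = 0.125).

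Of 24 general endothelial genes, 20 were tested, 1 was higher and 0 were lower by limma and by voom, with 7 higher and 0 lower at an unadjusted p under 0.05 (median 0.21). The higher gene was Eng, the TGF-beta co-receptor endoglin, at 39.3 ± 4.54 FPKM in knockout and 28.1 ± 0.147 FPKM in wild type (SD, n = 3 each; limma, adjusted p = 0.0360). It lost its call without knockout replicate 1 (0.0684) or 2 (0.110) or wild-type replicate 1 (0.101), 2 (0.107) or 3 (0.0740). The call was also lost when scaled by median of ratios (0.0526) or by quantiles (0.0606), and with the replicate block (0.0685). Cdh5, the endothelial cadherin, was at 14.5 ± 1.31 FPKM in knockout and 11.9 ± 0.944 FPKM in wild type (limma, adjusted p = 0.152, uncalled). The transcription factor gene Sox18 (8.71 ± 2.47 FPKM in knockout, 5.43 ± 0.906 FPKM in wild type) and the guidance receptor gene Robo4 (4.94 ± 0.868 FPKM in knockout, 3.69 ± 0.0768 FPKM in wild type) were not called either (limma, adjusted p = 0.130 and 0.133), although Sox18 was without knockout replicate 3 (0.0349).

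Among 15 genes of continuous capillaries and the basement membrane, 13 were tested, and 3 were higher and 0 lower (limma; voom called 5 higher and 0 lower; at an unadjusted p under 0.05, 6 were higher and 1 lower; median 0.28). All 3 encode basement membrane proteins, which stellate cells and other cells also make. The type IV collagen genes Col4a1 and Col4a2 were at 18.6 ± 4.35 and 13.2 ± 3.06 FPKM in knockout and at 9.87 ± 0.200 and 6.66 ± 0.454 FPKM in wild type (limma, adjusted p = 0.0224 and 0.0222), and they are neighbours on 1 chromosome with a shared promoter region. Nid1, the nidogen gene, was at 9.42 ± 2.15 FPKM in knockout and 5.40 ± 0.446 FPKM in wild type (limma, adjusted p = 0.0362). Col4a1 lost its call without knockout replicate 3 (0.0559) or wild-type replicate 1 (0.0669), 2 (0.0823) or 3 (0.0560). Col4a2 lost it without knockout replicate 2 (0.0669) or 3 (0.0620) or wild-type replicate 1 (0.0638) or 2 (0.0904), and Nid1 with any library left out other than knockout replicate 1 (0.0580 to 0.114). Nid1 also lost it with the replicate block (0.0505). Fabp4, a fatty acid binding protein of capillaries, fat cells and macrophages, was at 24.0 ± 5.60 FPKM in knockout and 14.1 ± 2.83 FPKM in wild type (limma, adjusted p = 0.0607). The list did not move as a whole. Log2 fold changes were above 0 for 10 of the 13 tested genes and below 0 for Fabp5 (-0.96), Cav1 (-0.31) and Cav2 (-0.10). Fabp5 was at 8.32 ± 2.63 FPKM in knockout and 18.0 ± 7.92 FPKM in wild type, with overlap (limma, adjusted p = 0.152).

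Of 31 ligands, receptors and targets of vascular signalling, 22 were tested, and 4 were higher and 1 lower by limma (median 0.18). The counts were 5 and 1 by voom, and 8 and 1 at an unadjusted p under 0.05. The higher genes by voom and at an unadjusted p include Wnt2, which passed the filter through its knockout level alone. The lower gene was Vegfa, the ligand of Kdr, which hepatocytes make in liver. It was at 13.0, 12.8 and 14.3 FPKM in knockout libraries and 20.2, 26.8 and 19.7 FPKM in wild type, with no overlap (log2 fold change -0.68 ± 0.126, SE; limma, adjusted p = 0.0233). The Vegfa call was lost without knockout replicate 1 (0.0538) or 2 (0.0963). The receptor gene Notch1 was at 7.15, 9.11 and 8.94 FPKM in knockout and 4.35, 4.99 and 3.86 FPKM in wild type (log2 fold change 0.80 ± 0.123, SE; limma, adjusted p = 0.0148), and of the libraries left out in turn, its call was lost without knockout replicate 2 (0.0618). Flt4 and Eng, which also stand in the lists above, were the next, and the VEGF co-receptor gene Nrp2, named after its values were seen, was at 6.18 ± 0.544 FPKM in knockout and 4.47 ± 0.219 FPKM in wild type (limma, adjusted p = 0.0495; 0.0974 to 0.152 with any 1 library left out, 0.119 with median-of-ratios factors and 0.135 with quantile normalization). The Nrp2 call was also lost with the filter at 5 FPKM (0.0505), robust eBayes (0.0516) and the replicate block (0.0788).

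**Figure D4:**
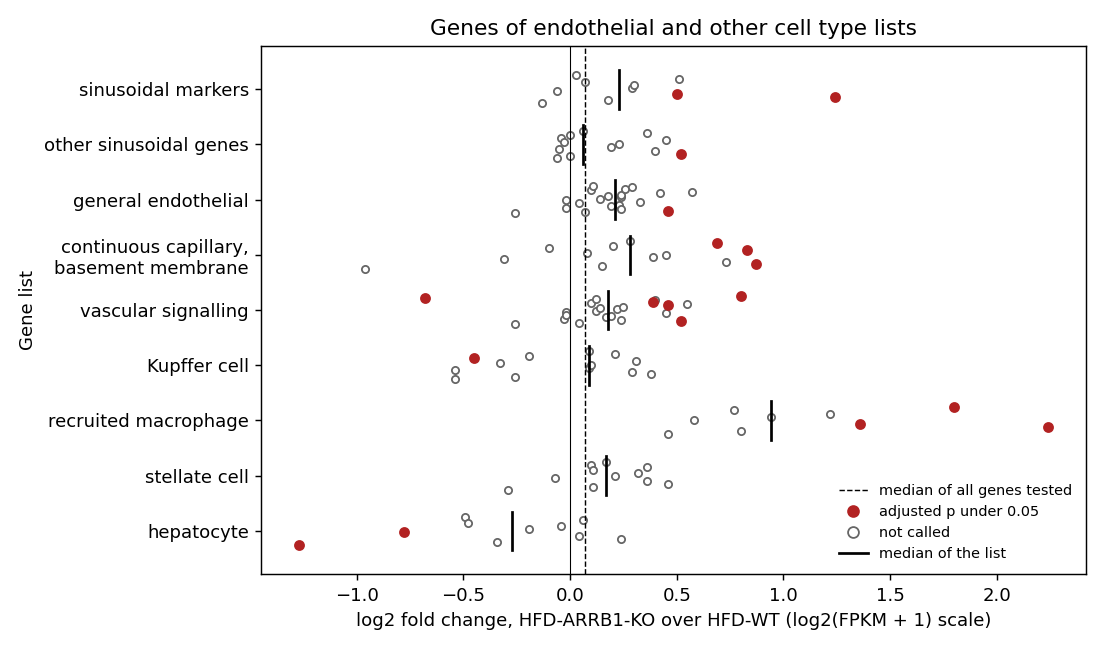
Log2 fold changes of HFD-ARRB1-KO over HFD-WT (log2(FPKM + 1) scale), 1 point per tested gene, for the 10 sinusoidal markers and 8 other gene lists. Red points were called at an adjusted p under 0.05, in either direction, short black lines are list medians and the dashed line is the median of all tested genes. The sinusoidal markers have a median of 0.23 and the hepatocyte list one of -0.27. In the recruited macrophage list (median 0.94), 4 of the 9 points, Gpnmb, Mmp12, Ccr2 and Cx3cr1, passed the filter through their knockout values alone. The position of that list is therefore not read against the other lists. Wnt2, a point of the other sinusoidal and the vascular signalling lists, passed in the same way.

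Several of the 10 genes are also made by other cells, whose markers were measured beside them. Lymphatic endothelium makes Lyve1. Its marker Ccl21a was listed at 0 in all 6 libraries, and Pdpn was at most 0.031 FPKM in knockout and 0.039 FPKM in wild type. Mmrn1 was low but above 0 in all 6, at 0.0465 to 0.584 FPKM in knockout and 0.129 to 0.548 FPKM in wild type. The 6 lymphatic genes summed to 32.5 to 41.4 FPKM in knockout and 23.8 to 35.1 FPKM in wild type, nearly all of it from Flt4, Reln and Prox1, which other liver cells make, and of the 3 tested only Flt4 was called. The part of lymphatic endothelium in the Lyve1 result was not tested. Of 8 platelet genes, which bear on Pecam1 and Vwf, 5 were listed at 0 in all libraries, among them Pf4, and 1 was tested and not called (Clec1b; limma, adjusted p = 0.622). Clec1b was at 5.27 to 6.14 FPKM in knockout and 5.13 to 5.91 FPKM in wild type beside those 5 genes at 0. Which cells made it was not tested, so it is not read as a measure of platelets. None of 5 B cell genes reached the filter, and they summed to 0.252 to 2.46 FPKM in knockout and 0.740 to 1.32 FPKM in wild type.

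Macrophages make Mrc1, Fcgr2b, Stab1 and in part Lyve1. Of 13 Kupffer cell genes, all tested, 0 were higher and 1 lower (limma; 1 higher and 3 lower at an unadjusted p under 0.05; voom called 0 and 1; median 0.09), and their summed level was 392 to 459 FPKM in knockout and 378 to 417 FPKM in wild type. The lower gene, the complement receptor gene Vsig4, was at 16.2 ± 1.21 FPKM in knockout and 22.5 ± 2.30 FPKM in wild type (SD, n = 3 each; limma, adjusted p = 0.0436). Its call was lost on the TPM scale (0.0513), with the replicate block (0.0877), without any 1 knockout library (0.0620 to 0.142) and without wild-type replicate 1 (0.117) or 2 (0.133). Levels of 4 of the 13 genes did not overlap and were lower in knockout (Vsig4, Timd4, Fcna and Folr2), against 7.81% of all tested genes. Levels of 2, Adgre1 and C1qb, did not overlap and were higher, against 23.4%. The summed level does not show these opposite directions. Of 12 recruited macrophage genes, 9 were tested, of which Gpnmb, Mmp12, Ccr2 and Cx3cr1 reached the 1 FPKM mean by their level in knockout alone. By limma 3 were higher and 0 lower, by voom 4 and 0, and at an unadjusted p under 0.05, 7 and 0. The called genes were Gpnmb, Mmp12 and Lgals3, which mark lipid-laden and scar-associated macrophages (limma, adjusted p = 0.0177, 0.0161 and 0.0275), and none of the 3 was called without wild-type replicate 2 (0.0686 to 0.104). Of the libraries left out in turn, Lgals3 was called only without knockout replicate 1 (0.0115; otherwise 0.0586 to 0.104), and it was not called with the replicate block (0.0508). The summed level of the list was 75.3, 199 and 110 FPKM in knockout replicates 1 to 3 and 80.4, 43.7 and 70.8 FPKM in wild-type replicates 1 to 3. In knockout replicate 1, where the sum was lowest of its group, Lgals3 (10.1 FPKM) lay above the highest wild-type library (6.26 FPKM). Gpnmb and Mmp12 were at 2.42 and 1.51 FPKM there and at most 0.174 and 0.229 FPKM in wild type. As they passed the filter through their knockout values, their separation is not read as support. The part of macrophages in the Lyve1, Mrc1, Fcgr2b and Stab1 values was not tested.

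Stellate cell, bile duct and hepatocyte genes were measured in the same way. Of 11 stellate cell genes, 0 were called in either direction by limma or voom, with 2 higher and 0 lower at an unadjusted p under 0.05 (median 0.17), and their summed level was 249 to 337 FPKM in knockout and 245 to 278 FPKM in wild type. Of 4 tested bile duct genes, 0 were called by limma or voom and 0 had an unadjusted p under 0.05. Of 10 hepatocyte genes, 2 were lower, Cps1 and Tat, and 0 higher by limma (median -0.27), where 1.60% of all tested genes were called lower. By voom 3 were lower and 0 higher, and at an unadjusted p under 0.05, 4 were lower and 0 higher. Levels of 5 of the 10 did not overlap, all lower in knockout, against 7.81% of all tested genes. The urea cycle gene Cps1 was at 180 ± 13.0 FPKM in knockout and 308 ± 22.9 FPKM in wild type (SD, n = 3 each; limma, adjusted p = 0.00794). Tat, the tyrosine aminotransferase gene, was at 320 ± 126 FPKM in knockout and 763 ± 258 FPKM in wild type (limma, adjusted p = 0.0495). Tat was called without knockout replicate 3 (0.0286) but not with any other single library left out (0.0731 to 0.161). Its call was also lost with a pseudocount of 0.1 (0.0501), median-of-ratios factors (0.0515), quantile normalization (0.0573), robust eBayes (0.0739) and the replicate block (0.0590).

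The tested genes whose pattern over the 6 libraries lay nearest to the mean pattern of the 10 endothelial genes, each gene being centred and scaled, were Arf4, P4ha2, Wasf2, Tubb2a and Nedd9. Their root mean square differences from that pattern were 0.0713 to 0.105 SD over the 6 libraries. None of these 5 genes was called (limma, adjusted p from 0.101 for Tubb2a to 0.189 for Nedd9), and none is a marker of endothelium in the lists above. Among the 10 genes themselves, Vwf (0.294) and Pecam1 (0.299) lay nearest to the mean pattern and Kdr (1.11) and Clec4g (1.12) farthest.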

How the data were processed

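The values are FPKM as deposited by the authors, 1 per gene symbol and library. Per the submitters' processing notes, Bowtie 0.12.2, HISAT2 and the builds mm8 and mm10 were used; their roles, the annotation, the strand setting and the HISAT2 version are not given in the sources used here. The labels' protocols name Trizol extraction and a TruSeq library kit. As the strand setting is unknown, reads of the 4 endothelial genes that share 112 to 155 exonic bases with an opposite-strand gene (Stab1, Stab2, Clec4g and Fcgr2b) could not be assigned by strand.

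Gene positions are from GENCODE vM21 (build GRCm38, the same as mm10), which matched 33989 of 46095 symbols, and promoter sequences are from RefSeq (GRCm38.p6). Whole reads were recovered from the FPKM steps for 17549 of 17549 genes above 0 in at least 4 libraries (tolerance 0.001 reads plus 5e-08 of the count). In a narrower search over 2000 genes, 94.15% came out whole with these steps and 0% with wrong ones. Their sums are the read totals given.

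The test was limma (3.58.1, R 4.3.3; two-sided; lmFit and eBayes with trend), fitted to log2(FPKM + 1) with a term for genotype. It covered 10633 genes averaging 1 FPKM or more, and p-values were adjusted over these by the Benjamini-Hochberg method. Fold changes are on that scale, knockout minus wild type, and understate changes of low genes. The fit was also run on simulated data, and the outcome is not reported here. Whether replicates are separate animals is not labelled, so the spread behind each p-value may be technical.

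The endothelial genes, the 12 other gene lists and the tests were chosen with earlier results of these data known. Named beside the 10 genes were Arrb1, up to 4 genes with the smallest p of each list described, and the 5 genes nearest in pattern. Alb, Ccl21a, Pdpn, Mmrn1, Pf4, Cx3cr1, Nrp2, Fabp5, Cav1, Cav2, Folr2 and C1qb fall outside this rule and were chosen after their values were seen. Alternatives were: no filter, filtering at 5 FPKM, a pseudocount of 0.1, TPM values, median-of-ratios scaling, quantile normalization, robust eBayes, voom on the recovered reads, a replicate block and each library left out, with the set of tested genes kept from all 6. Tests of ratios used Python 3.11.15 with scipy 1.17.1, and plots matplotlib 3.10.9.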

Additional observations from a re-analysis of the deposited data

How the results depend on the processing

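Of 149 log2 fold changes of the 10 endothelial genes under 15 alternatives, 130 kept their direction and side of the threshold, 9 lost the call (all Pecam1), 3 gained one (Oit3 or Vwf) and 7 changed sign. No sign change touched a called gene. With quantile normalization and median-of-ratios factors, Fcgr2b turned to -0.06 (both) and Mrc1 to -0.0043 and -0.02. With 1 library left out, Fcgr2b ranged from -0.08 (no knockout replicate 2; -0.03 with no wild-type replicate 2) to 0.12, and Kdr from -0.12 to 0.01 (no knockout replicate 1). The cause was not tested. The number of endothelial genes called higher, 2 as reported, was 1 with no filter, quantile normalization, median-of-ratios factors or a replicate block (Pecam1, adjusted p = 0.0538 by limma), and 1 to 3 with 1 library left out. Called genes of the other lists, 10 higher and 4 lower, numbered 0 higher and 1 lower with no filter, 6 and 2 with the replicate block, and 1 to 9 and 1 to 3 with 1 library left out. Correlations of deviations between knockout and wild-type libraries were 0.17, -0.063 and 0.097 for the same replicate number. For different replicate numbers they ran from -0.243 to 0.125. With 3 libraries per group, they cannot decide whether replicate numbers pair the libraries. Over all genes, calls numbered 564 higher and 170 lower as reported, 990 and 172 with TPM, 352 and 226 with median-of-ratios factors, 371 and 204 with quantile normalization and 88 and 58 with no filter. They were 280 and 122 with the replicate block, and 100 to 428 and 55 to 121 with 1 library left out, fewest higher without knockout replicate 2. With no filter, Cps1 alone kept its call among the called genes of the other lists. Vwf could not be fitted with the filter at 5 FPKM. Knockout replicate 1 had the fewest reads, which limits its values most.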
